A study of Mus musculus with 19 samples.

Results

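Transcript levels of 4 genes were followed in single mouse embryos at the end of preimplantation development: Gabpa, Gabpb1 and Gabpb2, which encode the subunits of the transcription factor GABP (GA-binding protein), and Nrf1, which encodes nuclear respiratory factor 1. They were taken by gene symbol, 1 row for each of the 4, from the 53379 genes of the deposited table, and all 4 were among the 18410 genes expressed highly enough to be tested (FPKM, a level per length of transcript and size of library, of 1 or more in at least 2 embryos). GABP acts as a complex in which an alpha subunit, encoded by Gabpa, binds DNA through an ETS domain, and a beta subunit, encoded by Gabpb1 or Gabpb2, carries the ankyrin repeats that contact alpha and the domain that activates transcription. NRF1 is unrelated in structure and binds its own palindromic sites as a homodimer. Both factors are known for driving nuclear genes of the respiratory chain and of mitochondrial DNA maintenance, and GABP is required in the mouse embryo before implantation.

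PolyA RNA was sequenced from 19 B6D2F1 embryos, each lysed alone, with ERCC spike-in RNA added to every lysate. Sperm and oocytes of Gabpb1+/- mice gave 8 embryos: 3 morulae labelled Gabpb1 KO with 2 morulae and 3 blastocysts that were not KO. Those of Alyref+/- mice also gave 8: 2 morulae labelled Alyref KO with 3 morulae and 3 blastocysts that were not KO. The seventh group was 3 blastocysts from WT B6D2F1 parents. All groups came from in vitro fertilisation and culture in KSOM, a medium for preimplantation embryos, up to 96 hours post insemination. Morulae and blastocysts were therefore of the same age. Every stage comparison below sets embryos that were morulae at 96 hours beside others that were blastocysts then, and follows none over time. A change from morula to blastocyst means this difference. The submitters called KO embryos from missing reads over the deleted region in these same libraries, and the other embryos of either cross, called controls from here on, can be WT or heterozygous. No blastocyst was labelled KO, and the KO comparisons below set morulae labelled KO against control morulae of the same cross. The labels name no batch, and the cross and any batch that went with it cannot be told apart. Embryos were separate individuals, but their fertilisation rounds and parents are not given, and the p-values measure the spread between these embryos alone.

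Between 7486125 and 31536282 gene counts were obtained per embryo, and the ERCC rows took 0.501% to 1.95% of all counts. Markers of trophectoderm, the outer layer of the blastocyst, summed to 3943 to 6589 CPM (counts scaled to the size of the library) in blastocysts and to 333 to 3995 CPM in morulae, with all 7 genes counted in every group. Markers of cells that could cling to an embryo were at or near 0: 6 cumulus and granulosa markers summed to at most 0.709 CPM, with Fshr at 0 in every embryo, and 4 sperm markers to at most 2.01 CPM, with Tnp1 at 0. Alyref, the other targeted gene and an mRNA export adaptor, was at 47.8 and 58.5 CPM in the embryos labelled Alyref KO against 161 to 291 CPM in the control morulae of that cross.

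The Gabpa promoter is shown here because, of the 4 genes, it alone held both a GABP and an NRF1 motif in the 250 bases before its RefSeq start (GRCm38.p6). The searched letters were CCGGAAG, an ETS motif bound by GABP, and CGCATGCG, the palindromic core of the NRF1 site, on both strands. CCGGAAG occurred in 6.91% and CGCATGCG in 1.55% of 32851 promoter windows of that length. Capitals mark the motif in the 2 stretches below, which are from the plus strand, the strand of Gabpa. The first holds CCGGAAG on the opposite strand.
Gabpa GABP motif, chr16:84835020-84835049: gagggtaagtgCTTCCGGgtccctcagcta
Gabpa NRF1 motif, chr16:84835094-84835123: ctcttggagacactgcactgtaCGCATGCG
The gene model behind the counts starts further upstream, at 84834925, so both stretches lie inside the span of Gabpa in the deposited table. The windows of Gabpb1 (2 starts), Gabpb2 (1 start) and Nrf1 (2 starts) held neither sequence. A match describes the letters and is no evidence of binding.

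Per length of transcript, Gabpa was the highest of the 4 genes in each of the 19 embryos and Gabpb2 the lowest. Gabpa ranged from 18.2 to 87.2 FPKM with a median of 31.4 FPKM. Gabpb1 had a median of 6.85 FPKM and Nrf1 of 4.94 FPKM. Gabpb2 stayed between 1.04 and 2.53 FPKM, so that the alpha subunit's message exceeded that of both beta subunits together in every embryo. The merged exon lengths used here were 5687 bases for Gabpa, 7752 for Gabpb1, 10282 for Nrf1 and 15465 for Gabpb2, and FPKM of a gene whose embryonic transcript is shorter than its merged exons is understated. The spread over embryos was widest for Gabpb1, whose highest CPM was 6.76 times the lowest, and then for Gabpa at 4.78 times. It was 2.44 times for Gabpb2 and 2.19 times for Nrf1.

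**Figure D1:**
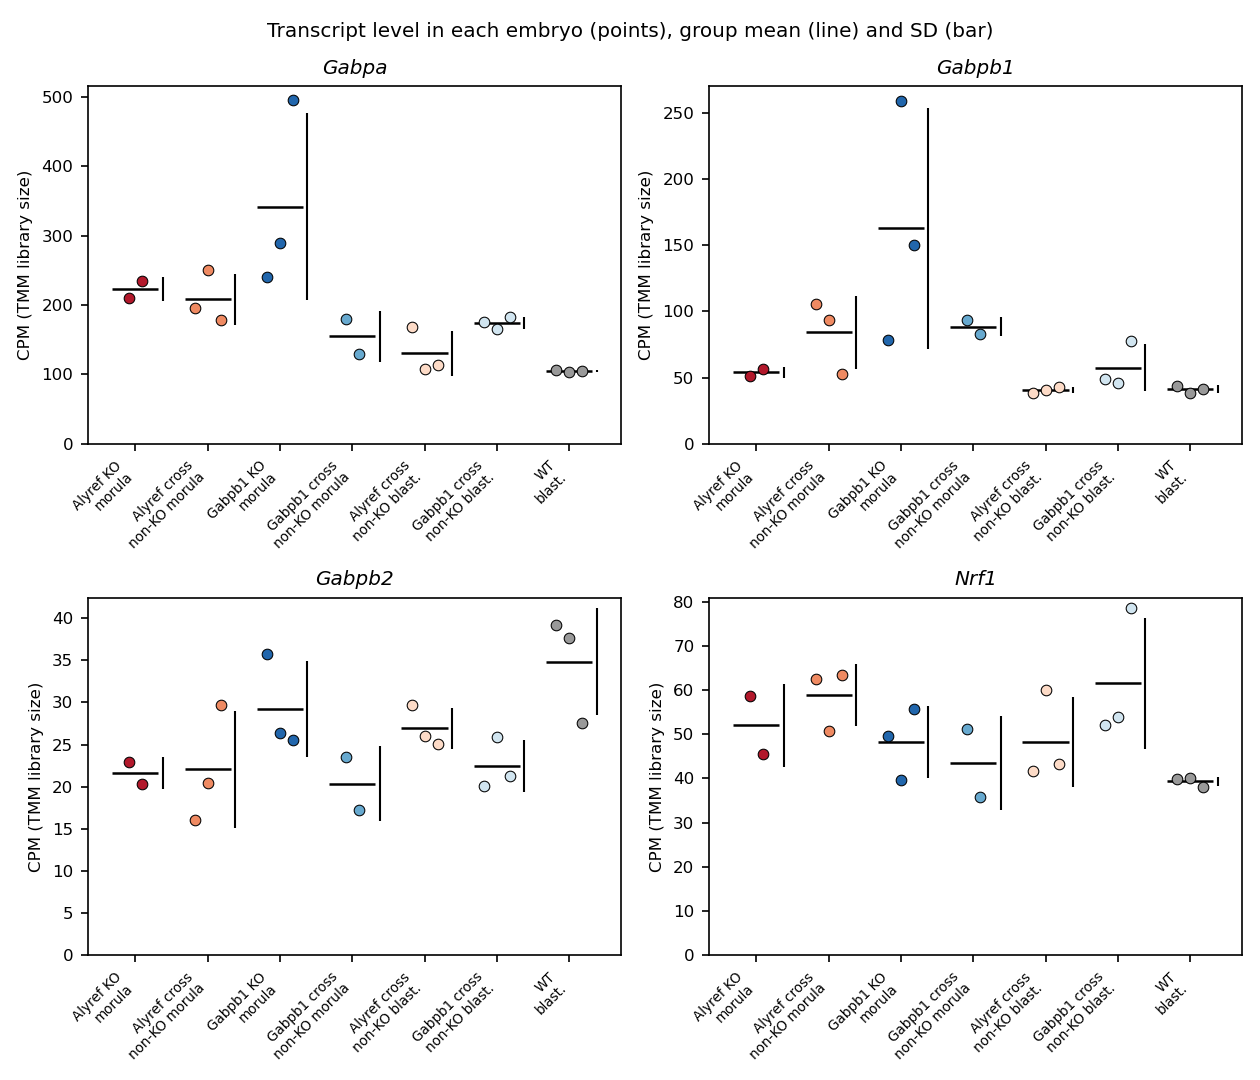
Level of each gene in CPM (counts scaled to TMM-scaled library size, axes from 0) in each of the 19 embryos, by group; points are embryos, lines group means and bars 1 SD. The 3 morulae labelled Gabpb1 KO hold the highest group mean of Gabpa (342 CPM) and of Gabpb1 (163 CPM), with wide spread, while WT blastocysts have the lowest mean of Gabpa (105 CPM) and Nrf1 (39.3 CPM) and the highest of Gabpb2 (34.8 CPM).

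Gabpa (ENSMUSG00000008976.16, plus strand of chromosome 16, 84834925 to 84863779, GRCm38) was at 241, 290.0 and 496 CPM in the 3 morulae labelled Gabpb1 KO and at 180.5 and 129 CPM in the 2 control morulae of the same cross. All 3 embryos labelled KO lay above both others. Over all genes tested, 15.8% had ranges that were apart in this direction between these groups. The means were 342 ± 136 (SD, n = 3) and 155 ± 36.3 CPM (SD, n = 2), a log2 fold change of 1.14 (SE 0.29, with a 95% interval of 0.54 to 1.75). Its adjusted p of 0.0518 (edgeR's quasi-likelihood test, Benjamini-Hochberg over 18410 genes) was just above the 0.05 threshold, so Gabpa was not called. DESeq2 did call it, with a log2 fold change of 1.14 and an adjusted p of 0.0068. So did the edgeR test without the first morula labelled KO, at 1.35 with an adjusted p of 0.0183. Without the second it was 1.24 with an adjusted p of 0.0837. Without the third, the highest embryo, the value was 0.76 with an adjusted p of 0.142, and with scaling to the spike-ins it was 0.58 with an adjusted p of 0.784. That scaling moved the median of all genes in this comparison from 0.06 to -0.405. Over all the settings tried the adjusted p ranged from 0.0068 to 0.784.

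Of the 4 genes, 0 were called between morulae labelled Gabpb1 KO and control morulae, where 1.65% of all genes tested were called. Gabpa and Gabpb1 had an unadjusted p under 0.05 (2 of 4, against 18.9% of all genes), and DESeq2 called 1 of the 4, Gabpa. The groups also differed in the sum of their trophectoderm markers, which was 333 to 2468 CPM in the embryos labelled KO and 2494 to 3995 CPM in the control morulae. Alyref cross morulae lay within the former range, at 598 to 1404 CPM (labelled KO) and 594 to 1853 CPM (controls). The most abundant genes weigh most in these sums. A single gene reached 15718 counts in an embryo labelled Gabpb1 KO and 29085 in a control morula of that cross. The 7 markers were not compared singly. Epiblast markers summed to 492 to 721 CPM in embryos labelled Gabpb1 KO and to 311 to 504 CPM in their controls. For primitive endoderm markers these sums were 149.9 to 208 CPM and 125 to 150.1 CPM. The part of these marker differences in the values of Gabpa or Gabpb1 was not tested. In RNA from whole embryos, fewer cells of a type and less RNA per cell cannot be told apart.

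In the Alyref cross, Gabpa was at 211 and 235 CPM in the morulae labelled Alyref KO and at 196, 250.02 and 179 CPM in control morulae, and these ranges overlapped. On the log2 scale the difference was 0.10 (SE 0.28, 95% interval -0.49 to 0.68, adjusted p 0.935). The difference between the KO effects of the crosses, tested itself, was 1.05 for Gabpa (SE 0.40, adjusted p 0.203). It was 0.67 without the third embryo labelled Gabpb1 KO and 0.43 with spike-in scaling, which moved the median of all genes from 0.12 to -0.33. Of the 5 Alyref cross morulae only 1, at 250.02 CPM, exceeded the lowest embryo labelled Gabpb1 KO.

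Control blastocysts of the Alyref cross held 168, 108 and 114 CPM of Gabpa, all under the 3 control morulae of that cross, a direction in which 19.2% of all genes had ranges apart. The fitted difference, blastocysts minus control morulae of the same age, was -0.68 on the log2 scale (SE 0.25, adjusted p 0.079). In the Gabpb1 cross the blastocysts were at 176, 166 and 183 CPM, around the level of the 2 control morulae. There the fitted change was 0.17 (SE 0.28, adjusted p 0.959), and the difference between the stage effects of the crosses was 0.85 (SE 0.37, adjusted p 0.337). WT blastocysts were nearly uniform at 107, 104 and 105 CPM. Every Gabpb1 cross blastocyst exceeded every WT blastocyst (6.51% of all genes were apart in this direction), with a log2 fold change of 0.73 (SE 0.25) that was not called at an adjusted p of 0.758. Alyref cross blastocysts also all lay above the WT blastocysts (6% of all genes), by 0.31 (SE 0.25, adjusted p 1). These comparisons share the WT blastocysts, and the KO and stage comparisons of a cross share its control morulae.

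One property of the Gabpa locus touches its counts. Its exons share 397 of 5687 bases with those of Atp5j, a subunit of ATP synthase transcribed from the opposite strand, which held 4080 to 24284 counts per embryo against 1204 to 6995 for Gabpa. Whether strand was used in counting is not given in the sources used here, so reads in the shared part cannot be assigned. Mean levels of Atp5j were 678 ± 41.7 CPM (SD, n = 3) for morulae labelled Gabpb1 KO, 632 ± 41.3 CPM (SD, n = 2) for their controls and 999.6 ± 157 CPM (SD, n = 3) for WT blastocysts, where Gabpa was lowest.

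**Figure D2:**
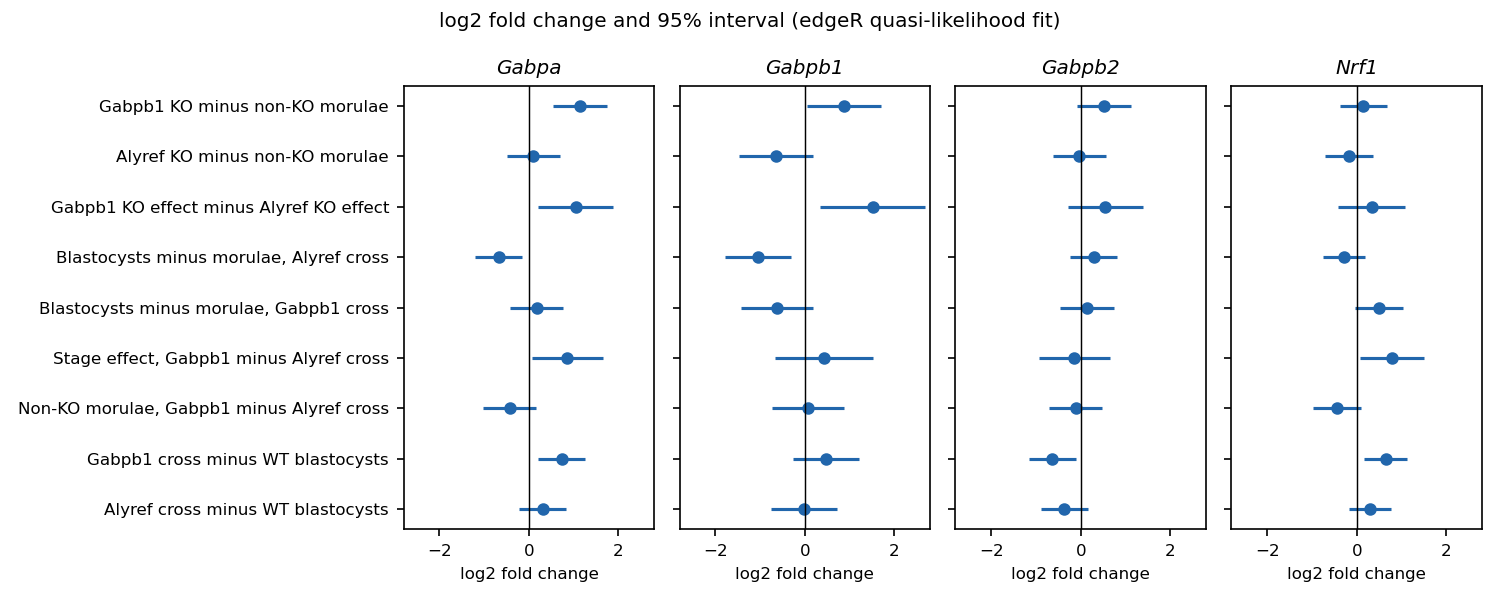
Log2 fold change (x axis) with 95% interval for the 4 genes in each of 9 comparisons, from edgeR's quasi-likelihood fit to all 19 embryos; the vertical line is 0. Intervals are for single comparisons and none of the values passed an adjusted p of 0.05 over 18410 genes; the highest estimate is that of Gabpb1 in the difference between KO effects, at 1.52.

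Gabpb1 (ENSMUSG00000027361.15, on the minus strand of chromosome 2 from 126627442 to 126676337), the targeted beta subunit, was counted in every embryo labelled Gabpb1 KO. These held 78.2, 259 and 151 CPM, from 909, 2802 and 2122 counts, against 93.8 and 83.3 CPM in the control morulae of the cross. The first embryo labelled KO lay under both control morulae, and the other two lay above them. The counts cover all exons of the gene, so they do not show whether the deleted part was read, and they check the label in neither direction. The fitted log2 fold change of Gabpb1 was 0.88 (SE 0.39, 95% interval 0.04 to 1.71, adjusted p 0.243). This value rested on single embryos: without the first embryo labelled KO it was 1.21 with an adjusted p of 0.0478, without the second 0.36 with an adjusted p of 0.639. With spike-in scaling it was 0.017. The second embryo labelled KO also had the highest ERCC share of all embryos, 1.95%, and the fewest detected genes, 23167, whose part in its Gabpb1 value was not tested.

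In the Alyref cross the group means of Gabpb1 had the opposite order. Morulae labelled Alyref KO were at 51.0 and 56.8 CPM and control morulae at 106, 93.6 and 53.1 CPM, so that the third control morula lay among the embryos labelled KO. A log2 fold change of -0.64 resulted (SE 0.39, 95% interval -1.47 to 0.19, adjusted p 0.556). Of the 4 genes, 0 were called in this comparison, where 0.228% of all genes were, 0 had an unadjusted p under 0.05 and DESeq2 called 0. The KO effects of the crosses differed for Gabpb1 by 1.52 (SE 0.55, 95% interval 0.34 to 2.69), with an adjusted p of 0.189. Again 0 of the 4 genes were called in this test, where 0.907% of all genes were, with 2 of 4 at an unadjusted p under 0.05, against 16.8% of all genes, and 0 called by DESeq2. Without the first embryo labelled Gabpb1 KO the difference was 1.85 and was called, with an adjusted p of 0.0442.

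Gabpb1 was lower in blastocysts than in control morulae in both crosses, though short of a call in each. Alyref cross blastocysts were at 38.7, 40.8 and 43.2 CPM, all under the 3 control morulae, where 19.2% of all genes were apart in this direction. This was -1.04 on the log2 scale (SE 0.35, adjusted p 0.0569), and 0 of the 4 genes were called in a comparison that called 13% of all genes, with 2 of 4 at an unadjusted p under 0.05 against 31.1% of all genes. DESeq2 called Gabpb1 here at -1.04 with an adjusted p of 0.0273. Without the third control morula, which had 53.1 CPM, edgeR's value was -1.29 with an adjusted p of 0.0162. The adjusted p ranged from 0.0162 to 0.196 over all settings.

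In the Gabpb1 cross the blastocysts held 48.7, 45.8 and 77.9 CPM, again all under the control morulae, where 11.7% of all genes were apart in this direction. This was -0.62 on the log2 scale (SE 0.38, adjusted p 0.799). edgeR called 0 of 18410 genes (0%) between these stages, with 1237 at an unadjusted p under 0.05, and DESeq2 called 48. None of the 4 genes was among either set. The stage effects of the crosses differed for Gabpb1 by 0.42 (SE 0.51, adjusted p 0.74), in a test that called 0.00543% of all genes. WT blastocysts were at 44.0, 38.3 and 41.7 CPM, beside which the Alyref cross blastocysts differed by -0.02 on the log2 scale (SE 0.34) and the Gabpb1 cross blastocysts by 0.48 (SE 0.34). Gabpb1 exons overlap the antisense RNA Gm27003 by 14 bases (2 to 25 counts per embryo). A transcript of the pseudogene Gm12858 matches Gabpb1 over 208 bases at 97.6% identity, and held 1 to 19 counts.

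Gabpb2 (ENSMUSG00000038766.16, minus strand of chromosome 3, 95181766 to 95217916), the second beta subunit, kept low levels at both stages, with a median of 23.2 CPM over the 10 morulae and 26.1 CPM over the 9 blastocysts. Morulae labelled Gabpb1 KO held 35.7, 26.4 and 25.5 CPM, and their controls held 23.5 and 17.2 CPM. Each embryo labelled KO lay above both controls, as in 15.8% of all genes, but the log2 fold change of 0.52 (SE 0.28, 95% interval -0.08 to 1.12) had an adjusted p of 0.332. It was 0.31 without the second control morula and 0.17 with spike-in scaling. In the Alyref cross 23.0 and 20.3 CPM in embryos labelled KO lay within the 16.1, 20.4 and 29.7 CPM of control morulae. The difference was -0.03 on the log2 scale (SE 0.28, 95% interval -0.62 to 0.56, adjusted p 0.99), and the KO effects of the crosses differed by 0.55 (SE 0.40, adjusted p 0.505).

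WT blastocysts held the most Gabpb2, at 39.2, 37.7 and 27.6 CPM. Gabpb1 cross blastocysts were at 20.1, 25.9 and 21.2 CPM, each below every WT blastocyst (6.33% of all genes were apart in this direction). The log2 fold change against WT blastocysts was -0.64 (SE 0.25, 95% interval -1.17 to -0.11), with an unadjusted p of 0.0217 and an adjusted p of 0.8. Alyref cross blastocysts, at 29.7, 26.1 and 25.0 CPM, overlapped the WT range and differed from it by -0.37 (SE 0.25, adjusted p 1). Between the stages it differed on the log2 scale by 0.29 (SE 0.25, adjusted p 0.445) in the Alyref cross and 0.14 (SE 0.28, adjusted p 0.967) in the Gabpb1 cross. Its exons share 328 bases with the antisense RNA Gm16740, which held 10 to 59 counts per embryo beside 174 to 921 for Gabpb2. Stretches of 119 to 328 bases in transcripts of 50 genes of the table, Gm16740 among them, were at least 95% identical to Gabpb2. The most abundant of these genes, Fkbp4, held 3613 to 27936 counts per embryo, and how the authors' counting treated reads that fit several genes is not given in the sources used here.

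Nrf1 (ENSMUSG00000058440.14, plus strand of chromosome 6, 30047988 to 30153458) varied least. It is a different gene from Nfe2l1, a bZIP factor that also goes by the name Nrf1. In the Gabpb1 cross it was at 49.6, 39.6 and 55.6 CPM in morulae labelled KO and at 51.1 and 35.9 CPM in control morulae, which overlapped. The fitted change of Nrf1 was 0.15 on the log2 scale (SE 0.25, 95% interval -0.38 to 0.68, adjusted p 0.781). Its sign depended on the setting: it was -0.27 with spike-in scaling (the median of all genes then being -0.405), -0.13 when the control morulae of the 2 crosses were pooled and -0.08 without the second control morula. In the Alyref cross the values were 58.6 and 45.4 CPM in embryos labelled KO against 62.6, 50.8 and 63.3 CPM. There the log2 fold change was -0.18 (SE 0.25, 95% interval -0.72 to 0.35, adjusted p 0.838). The interval of the difference between these KO effects, -0.42 to 1.09, holds differences of more than 1 on the log2 scale.

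Across stages Nrf1 was at 41.6, 60.1 and 43.2 CPM in Alyref cross blastocysts, which was -0.29 on the log2 scale from the morulae (SE 0.22, adjusted p 0.398). Gabpb1 cross blastocysts were at 52.0, 54.0 and 78.6 CPM, which was 0.50 above the control morulae of that cross (SE 0.25, adjusted p 0.768). The difference between these stage effects was 0.79 (SE 0.34, unadjusted p 0.0334, adjusted p 0.331). WT blastocysts lay close together at 39.8, 40.1 and 38.1 CPM. All 3 Gabpb1 cross blastocysts exceeded all 3 WT blastocysts (6.51% of all genes), with a log2 fold change of 0.65 (SE 0.22, unadjusted p 0.0113) that had an adjusted p of 0.788.

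Between Gabpb1 cross and WT blastocysts 3 of the 4 genes had an unadjusted p under 0.05, Gabpa and Nrf1 above and Gabpb2 below WT, where 6.1% of all genes did. edgeR called 0 of 18410 genes (0%) in that comparison and DESeq2 called 39, with 0 of the 4 among them. Between Alyref cross and WT blastocysts 0 of the 4 genes had an unadjusted p under 0.05, edgeR called 0 genes (0%, with 541 at an unadjusted p under 0.05) and DESeq2 called 15. The control morulae of the crosses gave log2 fold changes (Gabpb1 minus Alyref cross) of -0.43 (SE 0.28) for Gabpa, 0.07 (SE 0.38) for Gabpb1, -0.12 (SE 0.28) for Gabpb2 and -0.44 (SE 0.25) for Nrf1. Their adjusted p-values were 0.315 to 0.936, while 1.86% of all genes were called.

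By group mean, Gabpa ran from the morulae labelled Gabpb1 KO (342 CPM) through those labelled Alyref KO (223), Alyref cross control morulae (208), Gabpb1 cross blastocysts (175), Gabpb1 cross control morulae (155) and Alyref cross blastocysts (130.3) to WT blastocysts (105). Only the first and the last of these groups had ranges apart from their neighbour, as 15.9% and 6% of all genes had in the same direction. For Gabpb1 the order began with the morulae labelled Gabpb1 KO (163 CPM) and both groups of control morulae (88.6 in the Gabpb1 and 84.2 in the Alyref cross). Gabpb1 cross blastocysts (57.5) and morulae labelled Alyref KO (53.9) followed, with WT (41.3) and Alyref cross blastocysts (40.9) last. Among neighbours in that order only the morulae labelled Alyref KO and the WT blastocysts were apart, as for 26.4% of all genes. For Gabpb2, from 34.8 CPM in WT blastocysts to 20.3 CPM in Gabpb1 cross control morulae, and for Nrf1, from 61.6 CPM in Gabpb1 cross blastocysts to 39.3 CPM in WT blastocysts, every pair of neighbouring groups overlapped.

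Since GABP is built from alpha and beta subunits, their transcripts were also compared within each embryo, where library scaling cancels. Gabpb1 per Gabpa, as a ratio of FPKM, was 0.178 and 0.177 in the morulae labelled Alyref KO and 0.396, 0.275 and 0.218 in the control morulae of that cross. Both embryos labelled KO thus lay under the 3 others. The difference was -0.70 on the log2 scale (exact two-sided permutation test, p 0.2). In the Gabpb1 cross the ratio was 0.239, 0.656 and 0.223 in embryos labelled KO and 0.381 and 0.473 in control morulae, so that 1 embryo labelled KO was above and the other two were below. The difference was -0.38 (exact permutation p 0.6). The ratio of Gabpb2 to Gabpb1 differed by 0.60 in the Alyref cross (exact permutation p 0.5) and by -0.19 in the Gabpb1 cross (exact permutation p 0.8). Single embryos moved these values. Without 1 embryo the Gabpb1 to Gabpa difference in the Gabpb1 cross ran from -0.88 (without the second embryo labelled KO) to -0.10 (without the third). The Gabpb2 to Gabpb1 difference ran from 0.20 (without the first control) to 1.14 (without the third) in the Alyref cross, and from -0.79 (without the first embryo labelled KO) to 0.29 (without the second) in the Gabpb1 cross. All 4 tests had an adjusted p of 0.8, and with 5 embryos in 10 splits none can go below an unadjusted 0.1.

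By FPKM over merged exons, Gabpb2 made up a minority of the beta subunit message in all embryos. This rests on lengths of 15465 bases for Gabpb2 and 7752 for Gabpb1, and a shorter Gabpb2 transcript in embryos would raise its share. In CPM, which takes no account of length, the second WT blastocyst held 37.7 of Gabpb2 and 38.3 of Gabpb1. Its share of summed Gabpb1 and Gabpb2 FPKM was 30.9%, 33.0% and 24.9% in WT blastocysts and 27.8%, 24.3% and 22.5% in Alyref cross blastocysts. In Gabpb1 cross blastocysts it was 17.1%, 22.1% and 12.0%. Among morulae it had a median of 10.5% and ran from 4.85% in the second embryo labelled Gabpb1 KO to 21.9% in the third Alyref cross control morula. The Alyref cross blastocysts all lay above the control morulae of their cross (7.08%, 9.85% and 21.9%), as the Gabpb1 cross blastocysts did above theirs (11.1% and 9.38%). The nearest embryos were at 22.5% and 21.9% in the Alyref cross and at 12.0% and 11.1% in the Gabpb1 cross. Gabpb1, which enters the share, was itself lower in these blastocysts, so the share is not a separate observation. These shares were not tested, and no other pairs of genes were compared in this way.

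**Figure D3:**
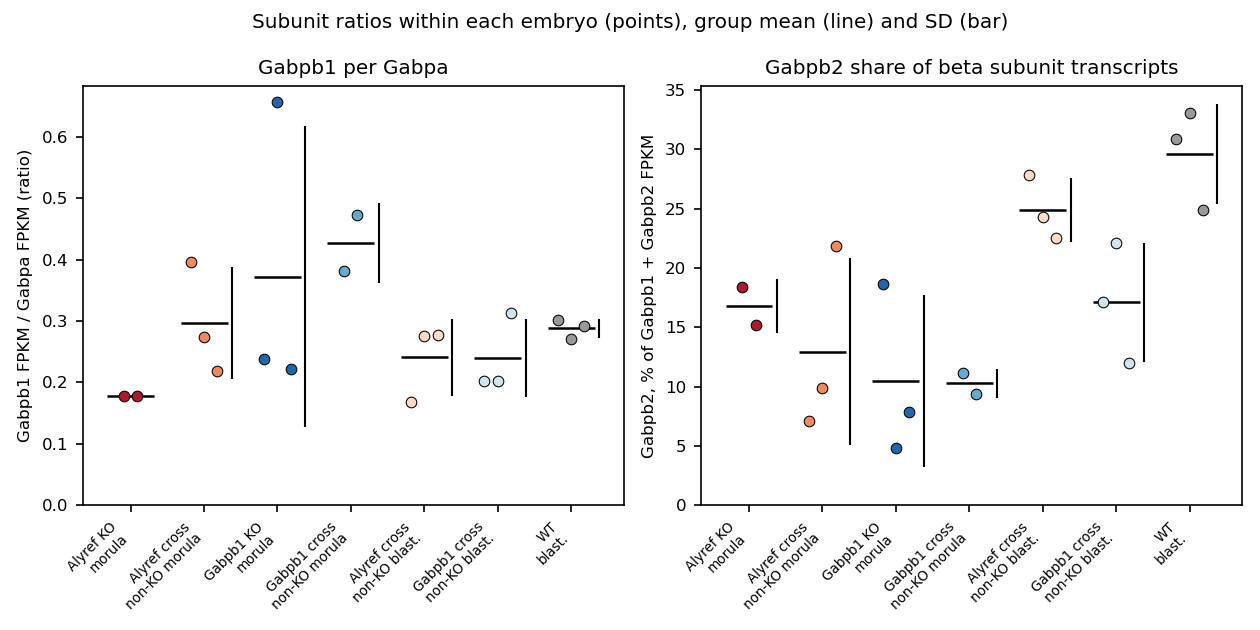
Subunit transcripts within each embryo, by group: Gabpb1 FPKM divided by Gabpa FPKM (left) and Gabpb2 as a percentage of Gabpb1 plus Gabpb2 FPKM (right); points are embryos, lines group means, bars 1 SD, axes from 0. Gabpb2 takes 12.0% to 33.0% of beta subunit FPKM in blastocysts and 4.85% to 21.9% in morulae, and these shares depend on the merged exon lengths.

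Genes that work with or downstream of these factors were read from lists chosen for their roles. The targets list held 23 genes described in textbooks as targets of GABP or NRF1, most of them in the respiratory chain or in mitochondrial transcription, and all 23 were tested. Between morulae labelled Gabpb1 KO and control morulae 14 had a higher and 9 a lower mean, with a median log2 fold change of 0.11 against 0.06 over all genes. edgeR called 0 of the 23 (5 had an unadjusted p under 0.05, where 18.9% of all genes did). DESeq2 called 3, all lower, and 1212 of the 18410 genes. Those 3 were also the targets with the smallest p in edgeR: Tfam, the packaging factor of mitochondrial DNA, Sdhd, an anchor subunit of succinate dehydrogenase, and Cox6b1, a subunit of cytochrome c oxidase. The others of the 5 were higher, Skp2 by 1.28 on the log2 scale (SE 0.46, adjusted p 0.153) and Yap1 by 0.77 (SE 0.31, adjusted p 0.202).

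Tfam was at 25.7, 36.2 and 15.8 CPM in the morulae labelled Gabpb1 KO and at 68.1 and 64.6 CPM in the control morulae. The change of -1.36 on the log2 scale (SE 0.33) had an adjusted p of 0.051. For the Alyref cross Tfam was at 65.6 and 67.9 CPM in embryos labelled KO and 68.7, 43.9 and 71.4 CPM in the others, and the difference between the KO effects was -1.48 (SE 0.47, adjusted p 0.139). Sdhd was at 115, 68.2 and 98.5 CPM in embryos labelled Gabpb1 KO and at 311 and 232 CPM in control morulae, which was -1.53 on the log2 scale (SE 0.39, adjusted p 0.0533). Cox6b1 had 298, 272 and 253 CPM against 465 and 452 CPM, which was -0.74 on the log2 scale (SE 0.21, adjusted p 0.0816). Alyref cross values of Sdhd were 75.8 and 71.6 CPM in embryos labelled KO and 129.8, 61.7 and 217 CPM in the others, a value of -0.88 on the log2 scale (SE 0.40, adjusted p 0.392). Those of Cox6b1 were 338 and 389 CPM in embryos labelled KO and 323, 277 and 450 CPM in the others. Its log2 fold change there was 0.06 (SE 0.21, adjusted p 0.957). The control at 277 CPM lay within the range of the embryos labelled Gabpb1 KO. The KO effects of the crosses differed by -0.65 for Sdhd (SE 0.55, adjusted p 0.586) and by -0.80 for Cox6b1 (SE 0.30, adjusted p 0.199). The embryos labelled Gabpb1 KO were below both control morulae for each of these genes, a direction in which 16.4% of all genes had ranges apart. Their adjusted p-values ran from 0.0045 (Tfam), 0.0055 (Sdhd) and 0.0159 (Cox6b1) with DESeq2 up to 0.338, 0.404 and 0.541 under other settings. Tfam and Sdhd also passed 0.05 with several of the edgeR settings. The summed trophectoderm markers of the same embryos, lower than in their controls but overlapping those of Alyref cross morulae, stand beside these values. Sdhd and Cox6b1 were also lower in control morulae than in blastocysts of the Alyref cross (log2 fold changes from morula to blastocyst of 1.36 and 0.81, both called). In the Gabpb1 cross these stage changes were 0.21 for Sdhd (SE 0.39, adjusted p 0.963) and 0.29 for Cox6b1 (SE 0.21, adjusted p 0.836). Tfam changed between stages by -0.13 (SE 0.30) in the Alyref cross and by -0.18 (SE 0.33) in the Gabpb1 cross. The part of stage in the values of embryos labelled Gabpb1 KO was not tested. In the Alyref KO comparison 8 of the 23 targets had a higher and 15 a lower mean, with a median of -0.22 against -0.04 over all genes, and edgeR and DESeq2 both called 0, with 7 of 23 at an unadjusted p under 0.05 in edgeR where 12.1% of all genes were.

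**Figure D4:**
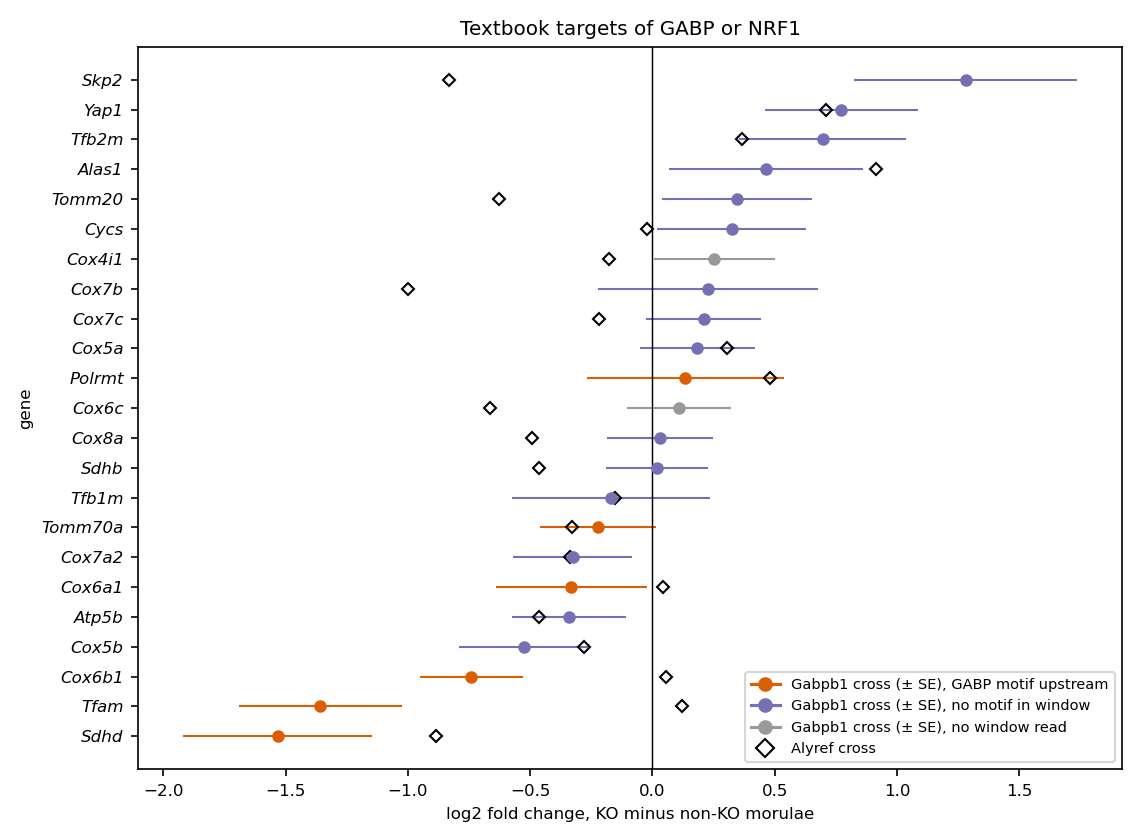
Log2 fold change, morulae labelled KO minus control morulae, for 23 textbook targets of GABP or NRF1; circles with bars are the Gabpb1 cross with 1 SE, open diamonds the Alyref cross, and colour gives whether the promoter window holds the GABP motif (no window was read for Cox4i1 and Cox6c). Tfam (-1.36), Sdhd (-1.53) and Cox6b1 (-0.74) lie lowest in the Gabpb1 cross and hold the motif; none of the 23 passed an adjusted p of 0.05 with edgeR.

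The promoter windows of the targets with the GABP motif are printed for comparison with that of Gabpa. Of 21 targets with a window, 6 held CCGGAAG on one or the other strand within 250 bases before the RefSeq start. Over all 27025 genes with a window, 7.83% did. Capitals mark the motif, each stretch reads 5′ to 3′ on the strand of its gene (GRCm38.p6), and the 3 genes above come first.
Tfam, minus strand, chr10:71238073-71238102: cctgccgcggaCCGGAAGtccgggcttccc
Sdhd, minus strand, chr9:50603877-50603906: ccgtctcctgcCTTCCGGttcacgcttcag
Cox6b1, minus strand, chr7:30626124-30626153: tcctctcgcagCTTCCGGccagtcggaatt
Cox6a1, minus strand, chr5:115348959-115348988: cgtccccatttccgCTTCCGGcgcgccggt
Polrmt, minus strand, chr10:79746606-79746635: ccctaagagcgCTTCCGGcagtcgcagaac
Tomm70a, plus strand, chr16:57121623-57121652: gccttctgaccCCGGAAGtggttctcccct
Cox6a1 encodes another cytochrome c oxidase subunit, Polrmt the mitochondrial RNA polymerase and Tomm70a an import receptor of the outer mitochondrial membrane. Tomm70a held a second copy nearer to its start, which is not printed. In the Gabpb1 cross the 6 genes had a median log2 fold change of -0.54, with 5 of 6 lower and values from -1.53 to 0.14. The 15 targets without the motif had a median of 0.21, with 4 of 15 lower. In the Alyref cross the medians were 0.05 with and -0.28 without the motif. Tfam, Sdhd and Cox6b1, named above for the smallest p in the Gabpb1 KO comparison, are among the 6, so the split is no separate observation. Outside the targets list the motif also occurred for Gabpa, at 1.14 in that comparison, Hcfc1 (0.49), Elk4 (-0.20) and Nfe2l2 (-1.05). The 6 and 15 genes were few and their expression is not independent, and this split was not tested. NRF1's CGCATGCG occurred in the windows of 3 targets, Cycs, Cox6a1 and Alas1, and in those of 1.75% of all genes with a window.

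From morula to blastocyst in the Alyref cross 9 of the 23 targets were called, 7 higher and 2 lower in blastocysts, where 5.62% of all genes were called higher and 7.43% lower. The 7 were Cycs (cytochrome c), Cox5a, Cox5b, Cox6b1, Cox7a2, Cox7c and Sdhd, with log2 fold changes of 0.69 to 1.36, and Polrmt (-1.36) and Tomm20 (-1.34) were lower. Under spike-in scaling 0 targets were called in this comparison, and the list's median of 0.36 became 0.07 while that of all genes became -0.34. In the Gabpb1 cross 0 targets were called between the stages by edgeR or DESeq2, with 1 at an unadjusted p under 0.05 (6.72% of all genes) and a median of 0.27 against 0.02 over all genes.

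Among 12 coactivators and partners 10 were tested, and Ppargc1a and Perm1 were too low. In the Gabpb1 KO comparison 6 had a higher and 4 a lower mean, with a median of 0.52 against 0.06 over all genes. edgeR called 0 of the 10 (5 at an unadjusted p under 0.05, as 18.9% of all genes were), and DESeq2 called 2, Sp1 and Yy1. Sp1, a zinc finger activator that binds GC boxes in many promoters, was at 34.9 to 76.9 CPM in embryos labelled Gabpb1 KO and 17.6 and 20.6 CPM in control morulae, higher by 1.54 on the log2 scale (SE 0.38, adjusted p 0.0517). It was 1.25 (SE 0.37, adjusted p 0.0977) for Yy1, a zinc finger factor, and 1.09 (SE 0.36, adjusted p 0.13) for Ep300, an acetyltransferase coactivator. Hcfc2, a host cell factor homologue named after its values were seen, went the other way, at 3.06 ± 1.40 CPM (SD, n = 3) in embryos labelled KO and 9.79 ± 1.04 CPM (SD, n = 2) in their controls. Its difference was -1.68 on the log2 scale (SE 0.58, adjusted p 0.143), and -1.10 when the control morulae were pooled. Alyref cross control morulae held 38.1 to 67.4 CPM of Sp1, within the range of the embryos labelled Gabpb1 KO. For Yy1 they held 42.5 to 76.8 CPM, beside 42.9 to 75.7 CPM in embryos labelled Gabpb1 KO. For Ep300 the ranges were 21.6 to 41.7 and 29.7 to 49.7 CPM, which also overlapped. In the Alyref KO comparison 0 of the 10 were called by edgeR or DESeq2 and 0 had an unadjusted p under 0.05.

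Of 25 other ETS factors, which share the DNA-binding domain of GABP alpha, 14 were tested. In the Gabpb1 KO comparison 5 had a higher and 9 a lower mean, with a median of -0.47. edgeR called 0, with 3 of 14 at an unadjusted p under 0.05 beside the same 18.9%, and DESeq2 called Etv3. Etv3, an ETS repressor, was at -2.57 on the log2 scale against the controls (SE 0.80, adjusted p 0.107). Without the first embryo labelled KO its value was -5.16 with an adjusted p of 0.00088, and leaving out any other embryo gave -2.82 to -2.07, with adjusted p-values up to 0.305. For Etv6, another repressor, it was 1.19 (SE 0.51, adjusted p 0.223). Etv2, a factor of blood and vessel development, was at 1.30 ± 1.06 CPM (SD, n = 3) in embryos labelled KO and at 0.0711 ± 0.101 CPM (SD, n = 2) in the controls, too few counts for a fold change (adjusted p 0.0961). Between stages of the Alyref cross Elf1 was called higher (1.24) and Spic lower (-2.84) in blastocysts, and under spike-in scaling 0 of the ETS factors were called higher and 1 lower. The CNC factors Nfe2l1 and Nfe2l2, tested because Nfe2l1 shares the name Nrf1, had log2 fold changes of 0.02 (SE 0.31, adjusted p 0.988) and -1.05 (SE 0.49, adjusted p 0.258) in the Gabpb1 KO comparison. The sign for Nfe2l1 differed between settings.

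Genes with the pattern most like each of the 4 over the 19 embryos were found by Pearson r of log2(CPM + 1), among tested genes with a mean of 5 FPKM or more. The points share 7 groups, both stages and library depth, and the r values are descriptions. For Gabpa they included Gm13743 (a processed pseudogene, r 0.893) and Zmym1 (0.881), and 0.741% of 8367 genes had an r above 0.8 with it. For Gabpb1 they were Haus2 (0.915), Ncoa4 (0.903) and Chek2 (0.873). The share of genes with an r above 0.8 was 0.705% for Gabpb1, 0.0239% for Gabpb2 and 0% for Nrf1. For Gabpb2, Mllt10 (0.821), Brd1 (0.802) and Hic2 (0.79) came first, and for Nrf1, Lrrc59 (0.717), the long noncoding RNA Platr27 (0.697) and Arhgef39 (0.694). Among the 4 genes themselves, Gabpa and Gabpb1 had an r of 0.735. Gabpb2 had an r of -0.249 with Gabpa and -0.329 with Gabpb1, and Nrf1 had 0.319 and 0.0868.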

How the data were processed

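The authors deposited 1 table of 19 columns, 1 per embryo. Though its name speaks of FPKM, its deposited values are unnormalized counts, since they are whole numbers whose totals differ between columns. It also gives each gene's merged exon length. Per the submitters' processing notes, Trimmomatic, Trim Galore, cutadapt, STAR, featureCounts and build mm10 were used. Versions and the strand setting are not given in the sources used here. Of 53379 gene rows, 50604 have an identifier of GENCODE M21 with the same start and end, so coordinates are those of GRCm38. The 92 ERCC rows were left out of library sizes.

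CPM and FPKM were computed from the counts with TMM-scaled library sizes. Genes with an FPKM of 1 or more in at least 2 embryos were tested (18410 of 39262 with any count). edgeR 4.0.16 (R 4.3.3) fitted 1 mean for each of 7 groups to all 19 embryos. The quasi-likelihood F test was applied to 9 contrasts, with Benjamini-Hochberg adjustment over all genes tested and a threshold of 0.05. SEs were derived from the log2 fold change and its F statistic. Every adjusted p in the text is from this test unless DESeq2 (1.42.0) is named. Ratios of subunits were compared with exact two-sided permutation tests. Libraries were amplified without molecular identifiers, so reads are not independent molecules and counting error is only part of a value's error.

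The 4 genes, the lists of related genes and the tests were chosen with earlier results of these data known. From each list the text names genes called in either KO comparison and the 3 with the smallest p in that of the Gabpb1 cross. Hcfc2, Skp2, Yap1 and the targets and ETS factors called between stages were named after their values were seen, as were Hcfc1 and Elk4, which held the GABP motif. For each of the 4 genes the 3 most similar patterns are named, except for 1 gene that is not reported here. Promoter sequences are from RefSeq (GRCm38.p6, all 4 genes matched). Alternatives were spike-in scaling, DESeq2 size factors, DESeq2's own test, other filters, only the compared groups in the fit, a replicate block, pooled control morulae, a pseudocount of 1 for the ratios and leaving out each embryo.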

Additional observations from a re-analysis of the deposited data

How the results depend on the processing

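Refits of the 4 genes under other settings kept direction and side of the threshold in 459 cases, turned sign in 27 and reached the threshold in 6. All values below are log2 fold changes or counts of called genes, and where no cause is named the cause was not tested. Spike-in scaling, which moved the median of all genes to between -0.86 and 0.39, turned Nrf1 in the Gabpb1 KO comparison (-0.27) and in the difference between KO effects (-0.015). It turned Gabpb2 between Alyref cross stages (-0.097), Gabpa (-0.72), Gabpb2 (-0.76) and Nrf1 (-0.45) between Gabpb1 cross stages, and Gabpb1 in the difference of stage effects (-0.34). Between control morulae it turned Gabpa (0.10) and Gabpb2 (0.25), and it turned Gabpb1 between Alyref cross and WT blastocysts (0.16). In the Alyref KO comparison Tfam (-0.018) and Cox6b1 (-0.087) turned. Gabpb1 between Alyref cross and WT blastocysts also turned with every counted gene tested (0.015) and with filterByExpr (0.00075). Pooled control morulae turned Nrf1 in the Gabpb1 KO comparison (-0.13). There Nfe2l1 was -0.0031 with DESeq2 size factors, -0.25 with spike-ins, -0.0022 with DESeq2, -0.064 with every counted gene, -0.034 with filterByExpr and -0.064 with pooled controls. Etv3 in the Alyref KO comparison was -0.0015 with every counted gene. DESeq2 called Gabpa in the Gabpb1 KO comparison (1.14) and Gabpb1 between Alyref cross stages (-1.04).

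Calls over all genes depended on the tool. DESeq2 called 1212 genes in the Gabpb1 KO comparison, 432 in that of Alyref KO, 817 in their difference, 3647 and 48 between stages of the Alyref and Gabpb1 crosses, 259 in the difference of these, 1552 between control morulae, and 39 and 15 for Gabpb1 and Alyref cross against WT blastocysts. Spike-in scaling gave 26, 0, 10 and 352 for the Gabpb1 KO, Alyref KO, difference and Alyref cross stage comparisons and 2 between control morulae. With only the compared groups in the fit, which leaves fewer embryos to estimate the spread, these were 0, 0, 0, 24 and 0, and 0 for the difference of stage effects. Testing every counted gene gave 13 for Alyref KO, 8 for the difference of stage effects and 1 for Gabpb1 cross against WT blastocysts.

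Leaving out 1 embryo at a time gave 46 to 978 calls in the Gabpb1 KO comparison, 0 to 128 for Alyref KO, 16 to 713 for their difference, 374 to 4560 and 0 to 6 between Alyref and Gabpb1 cross stages, 0 to 702 for the difference of these, 0 to 2440 between control morulae, and 0 to 1 for each cross against WT blastocysts. In the Gabpb1 KO comparison Gabpa ranged from 0.76 to 1.41, Gabpb1 from 0.36 to 1.21, Nrf1 from -0.082 to 0.43 and Nfe2l1 from -0.25 to 0.24. In the Alyref KO comparison Gabpa ranged from -0.0029 to 0.24, Gabpb2 from -0.23 to 0.25, Etv6 from -0.35 to 0.080, Etv3 from -0.11 to 0.17, Cox6b1 from -0.097 to 0.28, Nfe2l2 from -0.18 to 0.79, Nfe2l1 from -0.16 to 0.26 and Tfam from -0.079 to 0.25. Gabpb1 ranged from 1.01 to 1.85 in the difference between KO effects, from -1.29 to -0.82 between Alyref cross stages, from -0.17 to 0.27 between control morulae and from -0.070 to 0.030 between Alyref cross and WT blastocysts. Gabpb2 ranged from -0.43 to 0.092 in the difference of stage effects, from -0.36 to 0.16 between control morulae and from -0.068 to 0.38 between Gabpb1 cross stages, where Gabpa ranged from -0.047 to 0.44. The log2 ratio of Gabpb2 to Gabpb1 in the Gabpb1 cross ranged from -0.79 to 0.29.

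Whether replicate numbers pair the embryos could not be decided. Of 52 same-numbered pairs 10 had deviations from their group means correlated above 0.1, over a range of -0.20 to 0.26. Differently numbered pairs were not compared, so these values have no reference. In groups of 2 embryos the deviations also mirror each other. With the replicate block Gabpa in the Gabpb1 KO comparison was 1.11 with an adjusted p of 0.0879, 8 genes were called for Alyref KO and 0 in the difference of stage effects, Etv3 for Alyref KO was -0.23, and no call of the 4 genes was changed. Sdhd in the Gabpb1 KO comparison reached the threshold with the block (-1.65, adjusted p 0.0437). Counts of the 4 genes were 174 to 6995 per embryo, and counting error weighs most on the lowest, those of Gabpb2.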
